A study of Mus musculus with 5 samples.

Results

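The TOX family comprises 4 genes, Tox, Tox2, Tox3 and Tox4, which were taken by gene symbol from the 41128 genes of the deposited table of normalized reads. Their RNA was measured in sorted cardiomyocyte nuclei. The animals were FVB mice, 8 weeks old, whose left anterior descending coronary artery had been tied off for good 7 days before. The border zone, the surviving muscle beside the infarct, was sampled in mice 32, 34 and 40 (n = 3 libraries), and the remote myocardium of infarcted hearts in mice 40 and 43 (n = 2 libraries). Every heart in both groups carried an infarct, no uninjured heart was analysed here, and mouse 40 is the only one of the 4 animals with a library from each region. Nuclei had been stained for PCM-1, a protein at the envelope of cardiomyocyte nuclei, and selected by flow cytometry. The family was picked with its values in these libraries already known, so the border zone and remote values of its members are given as a description, without a test.

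TOX proteins are nuclear factors that carry a single HMG box, a DNA-binding fold that sits in the minor groove and bends the helix. The box is nearly the same in all members, while the flanking regions differ. Tox is best known from T cells, where it is needed for the CD4 lineage and is induced by calcineurin and NFAT signalling during exhaustion. Tox2 acts beside Tox in exhausted and follicular helper T cells, and was first described in rat ovary as a granulosa cell HMG-box gene. Tox3, with a glutamine-rich end, binds CREB and its coactivators in rat neurons, and lies at a human breast cancer risk locus. Tox4 is a broadly expressed member of a nuclear phosphatase complex that holds protein phosphatase 1, Ppp1r10 (PNUTS) and Wdr82.

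The annotation of mm10 places Tox2 (ENSMUSG00000074607) on the plus strand of chromosome 2 from 163203125 to 163324170, a span of 121046 bases with up to 9 exons in a transcript. Tox3 (ENSMUSG00000043668) lies on the minus strand of chromosome 8 from 90247040 to 90348343, with a span of 101304 bases. Tox4 (ENSMUSG00000016831) is the compact member, with 17256 bases on the plus strand of chromosome 14 from 52279146 to 52296401. Tox (ENSMUSG00000041272) spans 305205 bases on the minus strand of chromosome 4, from 6686353 to 6991557. The deposited lengths of the longest transcript are 2947 bases for Tox2, 3356 for Tox3, 5340 for Tox4 and 3961 for Tox.

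Promoters of 3 of the 4 members were found by symbol in the RefSeq promoter sequences of build GRCm38.p6, the assembly of mm10, and the 250 bases before a start are shown, because Tox2 and Tox3 were higher in the border zone and Tox4 was not. RefSeq gives Tox2 5 starts spread over 22327 bases, of which the outermost upstream one and one of a neighbouring pair at the downstream end are printed. Capitals mark GGGCGG (the GC box) and GGAAAA (the core of NFAT sites), each searched on both strands with overlapping matches counted.

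Tox2 upstream start, chr2:163202877-163203126, plus strand: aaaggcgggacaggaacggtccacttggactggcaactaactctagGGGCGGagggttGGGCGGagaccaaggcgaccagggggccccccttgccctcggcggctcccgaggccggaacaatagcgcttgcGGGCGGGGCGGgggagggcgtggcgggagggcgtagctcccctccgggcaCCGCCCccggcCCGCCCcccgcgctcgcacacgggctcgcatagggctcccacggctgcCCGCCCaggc
Tox2 downstream start, chr2:163225203-163225452, plus strand: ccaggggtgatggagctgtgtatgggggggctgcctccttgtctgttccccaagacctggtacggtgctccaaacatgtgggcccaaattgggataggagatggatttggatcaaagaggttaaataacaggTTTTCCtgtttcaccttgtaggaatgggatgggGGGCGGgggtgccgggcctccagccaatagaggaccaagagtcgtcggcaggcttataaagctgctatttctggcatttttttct
Tox3, chr8:90348253-90348502, minus strand: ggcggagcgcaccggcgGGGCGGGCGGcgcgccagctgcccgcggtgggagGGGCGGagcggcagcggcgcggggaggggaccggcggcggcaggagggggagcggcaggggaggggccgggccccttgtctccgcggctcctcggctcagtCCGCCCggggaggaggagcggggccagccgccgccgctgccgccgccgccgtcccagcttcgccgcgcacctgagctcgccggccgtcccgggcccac
Tox4, chr14:52278896-52279145, plus strand: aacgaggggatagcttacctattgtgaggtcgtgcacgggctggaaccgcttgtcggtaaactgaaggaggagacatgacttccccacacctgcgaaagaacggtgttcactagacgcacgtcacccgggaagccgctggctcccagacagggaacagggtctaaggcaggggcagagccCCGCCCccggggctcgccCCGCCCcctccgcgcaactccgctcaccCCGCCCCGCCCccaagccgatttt

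The Tox3 window is among the most GC-rich of all, with 84.4% G or C, above 99.8% of the 32851 promoter windows, whose median is 52.4%. The upstream Tox2 window has 75.2% G or C and 7 GC boxes, while the downstream window has 52.8% and 1. Tox3 and Tox4 have 4 GC boxes each, and 32.7% of all windows hold at least 1. The GGAAAA core occurs once in the downstream Tox2 window and in 20.4% of all windows. The AP-1 letters TGANTCA, the Nr4a letters AAAGGTCA and the CREB letters TGACGTCA, found in 6.75%, 1.34% and 1.55% of all windows on either strand, occur in none of the 7 windows of these 3 genes. A match of letters is not a binding site, and the deposited values per gene do not say which Tox2 start was used.

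Recovered depth ran from 18725791 to 25014205 reads in the border zone and from 11324539 to 13440421 in remote muscle. The libraries differed in complexity. Thinned to the depth of the shallowest library, 15843 to 19602 genes were expected in a border zone library and 22386 to 22670 in a remote one. The 10 most abundant genes took 45.6% to 60.3% of border zone reads and 34.4% to 43.5% of remote reads. All 10 cardiomyocyte markers examined, such as Myh6, Tnnt2 and Ryr2, were present in every library, with summed normalized reads of 1864520 to 6356470 in the border zone and 1008330 to 1494870 in remote muscle. The normalized total was also higher in every border zone library than in both remote ones. Relative to that total, the marker sums of border zone mice 34 and 40 lay below that of remote mouse 40. Ttn alone made up 71.9% to 77.5% of a library's marker sum. The direction was not shared by all markers. Pln and Pcm1, the gene of the sorted protein, had log2 changes of -2.63 ± 0.67 and -0.82 ± 0.50 (SE) without overlap. The log2 change was positive for 8 of 10 markers. With total-count scaling it was positive for 2 of 10, although 8 still lay above the median of all genes. With quantile normalization it was positive for 0 of 10, and 1 lay above that median.

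Tox2 showed the widest range of the family. Its normalized reads were 591, 722 and 46.9 in border zone mice 32, 34 and 40, and 15.9 and 2.19 in remote mice 40 and 43. The groups did not overlap, but the border zone library of mouse 40 lay far below the other border zone libraries, 15.4-fold under mouse 34 and only 2.96-fold above the remote library of the same animal. The mean was 453 ± 358 in the border zone (SD, n = 3) and 9.02 ± 9.66 in remote muscle (SD, n = 2), a log2 change of 5.22 ± 1.25 (SE) on the log2(normalized reads + 1) scale. Of the 14989 genes with a mean of at least 10, only 7 had a larger positive change. These values rest on 373, 587 and 60 recovered reads in border zone mice 32, 34 and 40, and on 21 and 3 in remote mice 40 and 43. As a share of the recovered reads of its library (RPM, reads-per-million), Tox2 had 14.9 (95% exact Poisson interval 13.4 to 16.5), 27.9 (25.7 to 30.2) and 3.20 (2.45 to 4.12) in border zone mice 32, 34 and 40. It had 1.56 (0.967 to 2.39) and 0.265 (0.0546 to 0.774) in remote mice 40 and 43. These intervals cover counting error only, and are too narrow even for that where amplified reads are not independent molecules. No separation of the regions is read from them. In such sums over sorted nuclei, fewer nuclei with the RNA and less RNA per nucleus cannot be told apart.

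Tox3 was the most even member in the border zone. Its normalized reads were 659, 651 and 465 in border zone mice 32, 34 and 40, and 242 and 38.7 in remote mice 40 and 43. All border zone libraries were higher than both remote ones, and here the remote libraries stood apart from each other, by 6.26-fold. The mean was 592 ± 110 in the border zone (SD, n = 3) and 141 ± 144 in remote muscle (SD, n = 2), with a log2 change of 2.57 ± 0.74 (SE). Without remote mouse 43 the change was 1.27, and without remote mouse 40 it was 3.88. The direction of single libraries depended on scaling. As a share of all reads, Tox3 had 16.6, 25.1 and 31.8 RPM in border zone mice 32, 34 and 40, and 23.9 and 4.68 in remote mice 40 and 43, so that remote mouse 40 lay above border zone mouse 32.

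Tox4 had similar normalized values in both regions. Its normalized reads were 303, 287 and 153 in border zone mice 32, 34 and 40, and 233 and 334 in remote mice 40 and 43, and the groups overlapped. The mean was 248 ± 82.0 in the border zone (SD, n = 3) and 284 ± 71.3 in remote muscle (SD, n = 2), a log2 change of -0.24 ± 0.60 (SE) that is close to the median of all tested genes, -0.21. Taken as a share of all reads, Tox4 was lower in each border zone library, with 7.64, 11.1 and 10.5 RPM in mice 32, 34 and 40, against 23.0 and 40.4 in remote mice 40 and 43. On that scale its log2 change was -1.66, against a median of -1.58 for all tested genes.

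Tox itself was barely detected. The libraries of border zone mice 32, 34 and 40 held 0, 1 and 2 of its reads, and those of remote mice 40 and 43 held 11 and 10. In normalized reads this was 0, 1.23 and 1.56 in the border zone and 8.30 and 7.31 in remote muscle, without overlap and in the direction opposite to Tox2 and Tox3. The 0 in border zone mouse 32 allows a level of up to 0.120 RPM at a floor of 3 reads, or 0.147 RPM as the upper end of its 95% exact Poisson interval. Remote mice 40 and 43 had 0.818 (95% exact Poisson interval 0.409 to 1.46) and 0.883 (0.423 to 1.62). With a mean of 3.68 normalized reads, Tox was the 1 member of 4 that did not reach the mean of 10 needed for the fit.

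**Figure D1:**
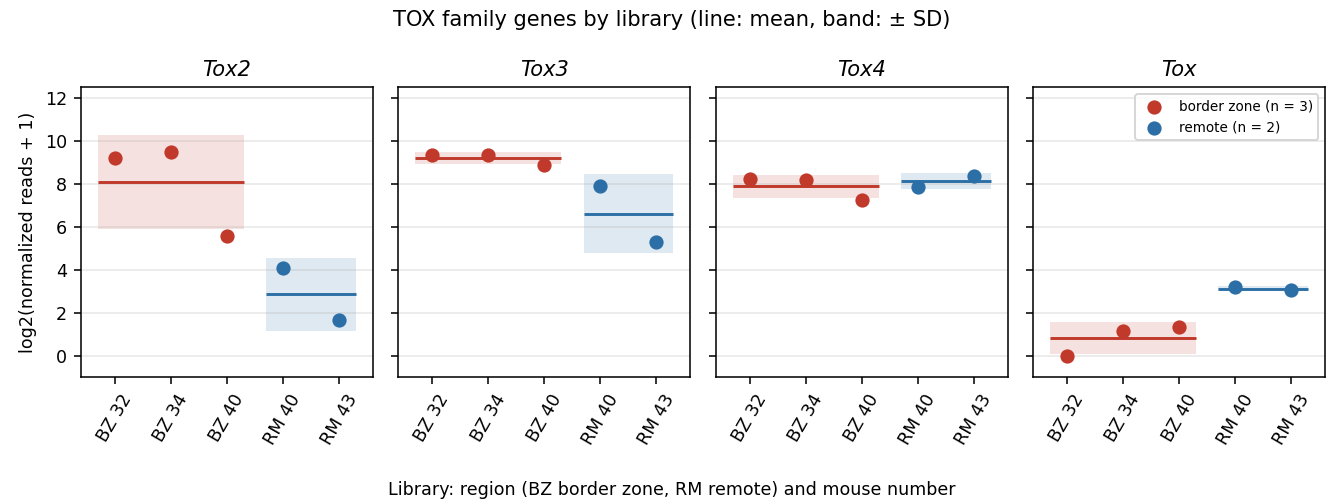
Points give log2(normalized reads + 1) of Tox2, Tox3, Tox4 and Tox in each library, with border zone in red and remote in blue, a line at the group mean and a band of 1 SD. Tox2 and Tox3 lie higher and Tox lower in every border zone library than in both remote ones, Tox4 overlaps, and border zone mouse 40 lies nearest to remote mouse 40 for Tox2.

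In the authors' deposited table, the log2 fold changes were 5.65 for Tox2, 2.07 for Tox3, -0.20 for Tox4 and -2.99 for Tox. Tox2 was the 1 member called there at adjusted p under 0.05, in a table that called 3.46% of genes higher and 1.98% lower in the border zone. Tox3 and Tox4 were not called, and Tox has no adjusted p in it. With limma on the normalized values, 0% of the 14989 genes were called in either direction at adjusted p under 0.05, and 2708 had an unadjusted p under 0.05. edgeR on recovered reads also called 0%, with 2394 genes at an unadjusted p under 0.05. Groups without overlap, as seen for Tox2 and Tox3 and, under the filter, for Tox, occurred for 18.9% of tested genes on the higher side and for 20.3% on the lower side. These shares describe the background, and nothing is read from the family's own count, since the members were picked on this contrast.

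The ratio between members within a library does not depend on how libraries are scaled. The shares of Tox2 and Tox4 in the family's reads did not overlap between the regions, and the share of Tox3 did. Tox2 made up 38.1% (95% exact binomial interval 35.0 to 41.2), 43.5% (40.8 to 46.2) and 7.03% (5.41 to 8.96) of the family's reads in border zone mice 32, 34 and 40. Its share was 3.17% (1.97 to 4.81) and 0.574% (0.118 to 1.67) in remote mice 40 and 43. Tox4 made up 19.5%, 17.3% and 23.0% of the family's reads in border zone mice 32, 34 and 40, and 46.7% and 87.4% in remote mice 40 and 43. The Tox4 share was thus the smaller in all 3 border zone libraries, but a share also falls where other members rise. The Tox3 share was 42.4%, 39.2% and 69.8% in border zone mice 32, 34 and 40, and 48.5% and 10.1% in remote mice 40 and 43, so remote mouse 40 lay above border zone mice 32 and 34. Relative to Tox4, Tox3 stood at log2 ratios of 1.12, 1.18 and 1.60 in border zone mice 32, 34 and 40, and at 0.05 and -3.11 in remote mice 40 and 43. These ratios lie in a narrow band in the border zone and are widely spread in remote muscle.

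Levels of different genes can be set side by side per kilobase of the longest transcript. In the border zone, Tox3 averaged 176 ± 32.6 normalized reads per kilobase, Tox2 154 ± 122, Tox4 46.4 ± 15.4 and Tox 0.235 ± 0.208 (SD, n = 3). Tox3 and Tox2 did not differ beyond their spread, and the Tox2 level of 15.9 in border zone mouse 40 fell below all Tox4 levels of the border zone, 28.7 to 56.7. In remote muscle, the order was Tox4 at 53.1 ± 13.3, Tox3 at 41.9 ± 42.9, Tox2 at 3.06 ± 3.28 and Tox at 1.97 ± 0.18 normalized reads per kilobase (SD, n = 2). Neither Tox4 and Tox3 nor Tox2 and Tox could be separated there, because their libraries overlapped. Summed over the family, the level was 454, 493 and 184 normalized reads per kilobase in border zone mice 32, 34 and 40. It was 123 and 76.7 in remote mice 40 and 43. This separation depended on scaling. Relative to its library's normalized total, the sum of border zone mouse 32 lay below that of remote mouse 40.

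**Figure D2:**
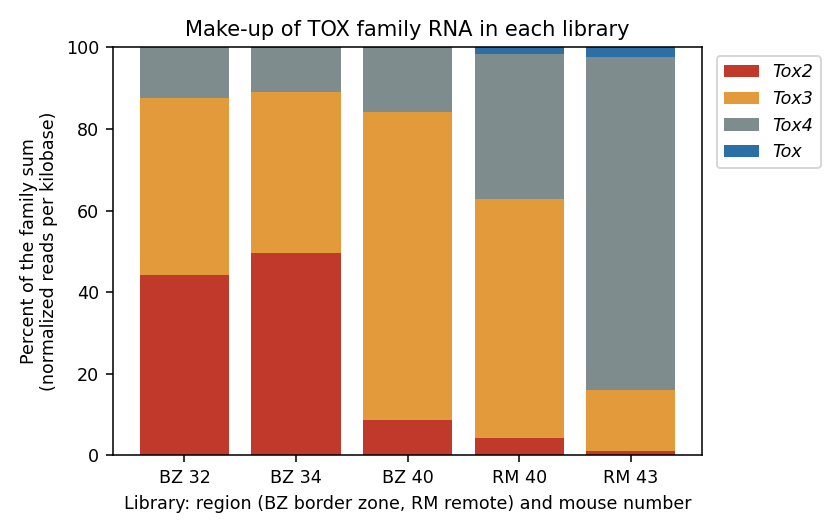
Stacked bars give the percent of the family's summed normalized reads per kilobase that each gene holds, one bar per library with border zone mice on the left and remote mice on the right. Tox2 holds 44.2% and 49.7% in border zone mice 32 and 34, 8.67% in border zone mouse 40 and 4.36% and 0.970% in remote mice 40 and 43, while Tox4 holds most in remote mouse 43.

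Within mouse 40, the one animal with both regions, the log2 difference of border zone minus remote was 1.51 for Tox2, 0.94 for Tox3, -0.60 for Tox4 and -1.86 for Tox, each from 1 library a region and without a test. The signs matched those over all libraries. The Tox2 difference in mouse 40 was larger than that of 91.1% of tested genes, and the Tox3 difference larger than that of 81.4%, with a median of 0.02 for all tested genes. Among the border zone libraries alone, Tox2 varied with an SD of 2.18 on the log2 scale, a larger SD than that of 84.7% of tested genes. Tox3 varied with an SD of 0.28, larger than that of 7.82%. Between the remote libraries, both Tox2 and Tox3 differed widely, by 2.40 and 2.61 on the log2 scale, more than 94.1% and 95.4% of tested genes.

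A few abundant genes had profiles close to that of Tox2. The root mean square difference between profiles of log2(normalized reads + 1), each centred on its mean over the 5 libraries, was used as the measure of likeness over 6448 genes whose mean reached 100 normalized reads. Nearest to Tox2 were Cald1, the actin-binding protein caldesmon (0.46), Creb5, a CREB-family factor (0.51), Sh3rf3 (0.55), the U3 small nucleolar RNA gene Rnu3a (0.56), Fam163b (0.63) and Slc17a9, a vesicular nucleotide transporter (0.66). Cald1 had 17874, 13923 and 1281 normalized reads in the border zone of mice 32, 34 and 40 and 714 and 145 in remote mice 40 and 43, and thus showed the same drop between border zone mouse 34 and mouse 40, although it was highest in mouse 32 and Tox2 in mouse 34. Creb5 had 20447, 11682 and 1723 normalized reads in the border zone of mice 32, 34 and 40, against 727 and 128 in remote mice 40 and 43. Nearest to Tox3 were the tyrosine kinase gene Syk (0.15), the focal adhesion gene Tgfb1i1 (0.18) and Trim47 (0.18). Nearest to Tox4 was Mettl14 (0.02), a subunit of the methyltransferase that places m6A on RNA, followed by Bnip2 (0.06) and the splicing factor gene Prpf19 (0.11). Nearest to Tox were Wars2, Sdcbp and Ube2d1, but with a pseudocount of 5 or with total-count scaling, 0 of the 3 stayed among the nearest.

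**Figure D3:**
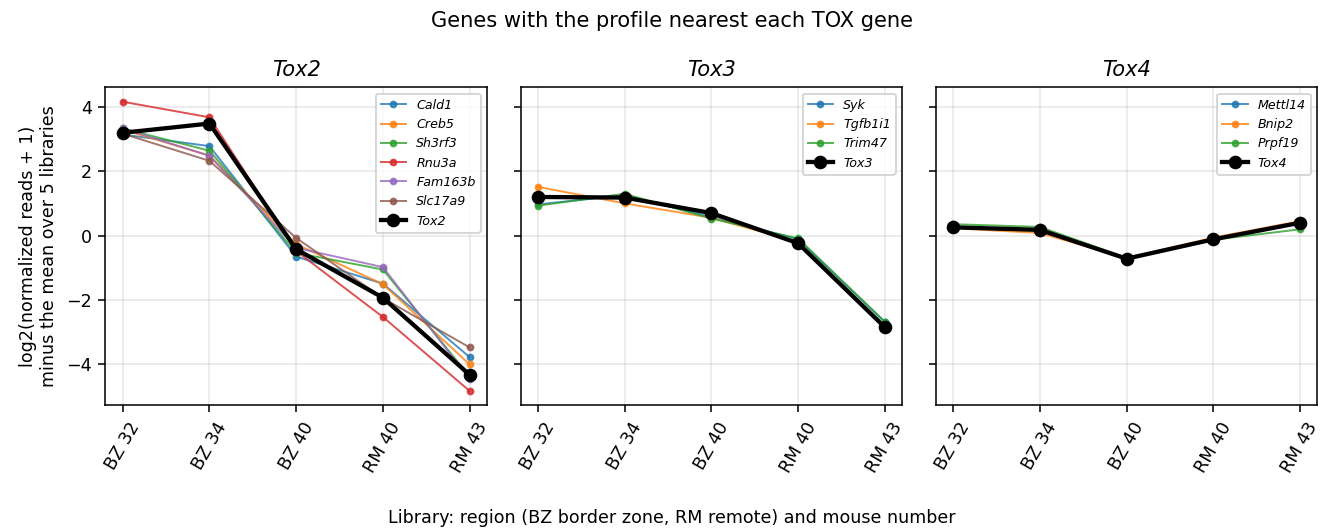
Lines give log2(normalized reads + 1) minus each gene's mean over the 5 libraries, for Tox2, Tox3 and Tox4 in black and for their nearest genes in colour, with border zone libraries on the left; lines join libraries only to help the eye. Tox2 and its neighbours drop at border zone mouse 40, Tox3 and its neighbours drop at remote mouse 43, and Tox4 stays within a narrow range.

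Genes that act upstream of Tox in T cells were followed in the calcineurin and NFAT list. Of its 14 members, all tested, 0 were called by limma, and the authors' deposited table held 2 higher calls and 0 lower ones, against 3.46% and 1.98% of all genes. The median log2 change of the list was 0.41, against -0.21 for all tested genes, with 9 members positive and 5 negative. With total-count scaling only 4 were positive, although 9 still lay above the median of all genes. That scaling shifts nearly all genes alike, so a count above the median could hardly change. Nfatc1, which encodes a calcium-regulated NFAT factor, had 2856, 2505 and 1778 normalized reads in the border zone of mice 32, 34 and 40, against 559 and 344 in remote mice 40 and 43. Every border zone library was over 3-fold above the higher remote one, and the change in the authors' deposited table was 2.40 on the log2 scale (adjusted p = 0.0048). Rcan1, a calcineurin inhibitor that is itself an NFAT target, had 3163, 1857 and 1155 normalized reads in the border zone of mice 32, 34 and 40 and 529 and 360 in remote mice 40 and 43, and exceeded the threshold as higher in the authors' deposited table, at log2 2.21 with an adjusted p = 0.026. DESeq2 on the recovered reads, which returned the authors' 902 calls, no longer called Nfatc1 without border zone mouse 34 (adjusted p = 0.0575) or remote mouse 43 (adjusted p = 0.471). It called Rcan1 only without border zone mouse 40 among the 5 ways to leave out a library (adjusted p = 0.00102), with adjusted p of 0.0833 to 0.643 in the other 4. Both genes stayed positive with total-count scaling, at 0.98 and 0.69 on the log2 scale. The subunit genes of calcineurin, the phosphatase itself, were not called and had log2 changes of 0.14 ± 0.76 for Ppp3ca, -0.74 ± 0.69 for Ppp3cc, -1.34 ± 1.19 for Ppp3cb and -1.92 ± 1.39 for Ppp3r1 (SE).

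Among the Nr4a nuclear receptors, which act together with TOX factors in exhausted T cells, Nr4a1 exceeded the threshold as higher in the authors' deposited table, at log2 3.20 with an adjusted p = 0.00015. It had 2438, 2306 and 1203 normalized reads in the border zone of mice 32, 34 and 40 and 220 and 212 in remote mice 40 and 43. Among the border zone libraries its normalized reads were lowest in mouse 40, as were those of Tox2, Tox3 and Tox4. That library also had the lowest normalized total of the border zone. In RPM, Tox3 was highest in border zone mouse 40 (31.8), and Tox4 was lowest in border zone mouse 32 (7.64). Without remote mouse 43, DESeq2 gave Nr4a1 an adjusted p of 0.0727. Nr4a3 had a log2 change of 1.02 ± 0.94 (SE) and was not called, and Nr4a2 had fewer than 11 normalized reads in every library.

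CREB and its coactivators, which bind Tox3 in rat neurons, had 10 of 11 members tested. Limma called 0, and 1 was higher and 0 lower by the calls of the authors' deposited table, against 3.46% and 1.98% of all genes. The called gene was Crtc1, a calcium-responsive CREB coactivator, with 3203, 2461 and 1149 normalized reads in the border zone of mice 32, 34 and 40, against 491 and 538 in remote mice 40 and 43 (log2 2.14, adjusted p = 0.029 in the authors' deposited table). DESeq2 lost this call when any library but border zone mouse 40 was left out, with adjusted p of 0.0815 to 0.504. The acetyltransferase genes Crebbp and Ep300 had log2 changes of 1.56 ± 0.46 and 1.33 ± 0.47 (SE) without a call, and Creb1 had -1.19 ± 0.67. Over the list, 6 of 10 changes were positive, and with total-count scaling 2 were, while 8 of 10 lay above the median of all genes under both. With quantile normalization 6 of 10 lay above that median, and 5 of 10 with the libraries of mice 40 and 43 only. Cited1, a partner of Tox3, was listed at 0 in all libraries.

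The phosphatase partners of Tox4 had no call in either analysis. Ppp1r10, the scaffold of the complex, had 1490, 3132 and 995 normalized reads in the border zone of mice 32, 34 and 40 and 759 and 479 in remote mice 40 and 43, a log2 change of 1.47 ± 0.56 (SE, limma adjusted p = 0.216). Wdr82 had 0.24 ± 0.53 and the phosphatase gene Ppp1cc -0.01 ± 0.52 on the log2 scale, while the less abundant phosphatase genes Ppp1cb and Ppp1ca had -2.15 ± 1.44 and -2.69 ± 1.64 (SE). Ppp1r10 was the 1 of 5 whose groups did not overlap, against 18.9% of tested genes on the higher side and 20.3% on the lower. Over the 5 genes the median was -0.01. The histone acetyltransferase complex of Kat7 (HBO1), which Tox binds in exhausted T cells, also had 0 of 10 members called by limma and 0 in the authors' deposited table. Its median log2 change was -0.26, with -0.20 ± 0.50 for Kat7, -0.32 ± 0.48 for Brd1 and 1.76 ± 0.56 for Brpf1 (SE).

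**Figure D4:**
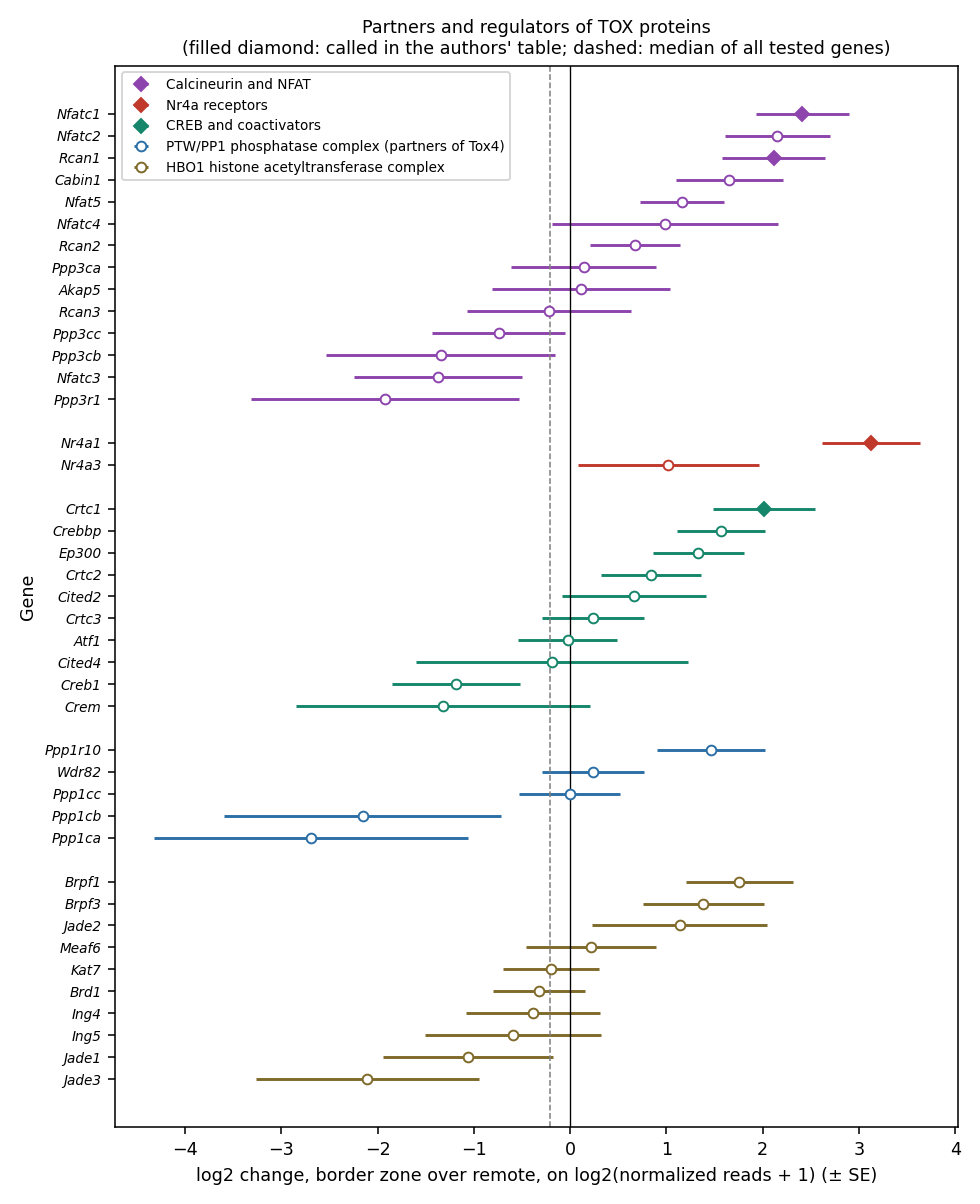
Points give the log2 change of border zone over remote with its SE for tested genes of 5 lists of partners and regulators of TOX proteins, with filled diamonds for genes called in the authors' deposited table and a dashed line at the median of all tested genes, -0.21. The 4 called genes, Nfatc1, Rcan1, Nr4a1 and Crtc1, all lie above 2, while the 4 calcineurin subunit genes lie at 0.14 or below.

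Other genes with an HMG box gave a frame for the family. Of 36 listed, 30 were tested, limma called 0, and of 31 with an adjusted p in the authors' deposited table the calls were 2 higher and 0 lower, against 3.46% and 1.98% of all genes. Their median log2 change was 0.51 with 21 of 30 positive, and 9 of 30 were positive with total-count scaling, which lowers the median of all genes to -1.58. Above the median of all genes lay 24 of 30, and 23 of 30 with total-count scaling. With quantile normalization 18 of 30 did, and 21 of 30 with the libraries of mice 40 and 43 only. Sox9, a factor of cartilage and fibrotic programmes, had 406, 460 and 80.6 normalized reads in the border zone of mice 32, 34 and 40 and 24.2 and 23.4 in remote mice 40 and 43 (log2 3.73, adjusted p = 0.0023 in the authors' deposited table). In normalized reads, mouse 40 had the lowest border zone value of Sox9, as it had for Tox2, Tox3 and Tox4. In RPM this rank held for Tox2, but not for Tox3 or Tox4. Without remote mouse 43, DESeq2 gave Sox9 an adjusted p of 0.163. Kmt2d, a histone methyltransferase, had 33818, 24905 and 11626 normalized reads in the border zone of mice 32, 34 and 40 and 6547 and 3608 in remote mice 40 and 43 (log2 2.21, adjusted p = 0.031 in the authors' deposited table), and among the sets with a library left out DESeq2 called it only without border zone mouse 40, with adjusted p of 0.0601 to 0.690 in the other 4. Tcf7, an HMG-box factor of T cells that was under the filter, was at 0, 1.23 and 0.782 normalized reads in the border zone of mice 32, 34 and 40 and 23.4 and 10.2 in remote mice 40 and 43.

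Since Tox and Tox2 are best known from lymphocytes, T cell markers were examined beside them. Their sum over 15 genes was 377, 191 and 46.9 normalized reads in the border zone of mice 32, 34 and 40. It was 92.9 and 63.6 in remote mice 40 and 43. Relative to its library's normalized total, the sum of border zone mouse 34 also lay below both remote ones. Cd3d (185, 62.8 and 3.13 in border zone mice 32, 34 and 40, against 5.28 and 0.731 in remote mice 40 and 43) exceeded the threshold as higher in the authors' deposited table, at log2 4.80 with an adjusted p = 0.027, and Cd3e and Cd4, not called, were higher in all 3 border zone libraries than in both remote ones. Cd28, the other tested marker and also not called, went the other way without overlap, with 3.17, 7.38 and 1.56 normalized reads in the border zone of mice 32, 34 and 40 and 55.9 and 27.0 in remote mice 40 and 43. Groups without overlap occurred for 18.9% of tested genes on the higher side and 20.3% on the lower. The defining markers Cd3g, Cd8a and Lck were at 0 in all border zone libraries. Of the 15 markers, 5 to 8 were at 0 in a border zone library and 4 or 5 in a remote one. DESeq2 lost the Cd3d call without border zone mouse 32 (adjusted p = 0.222), remote mouse 40 (adjusted p = 0.0510) or remote mouse 43 (adjusted p = 0.598). The sum in border zone mouse 40 was the lowest of the 5 libraries, but this rank leans on Cd28. Cd28 held 55.9 of the 92.9 in remote mouse 40 and 27.0 of the 63.6 in remote mouse 43. In border zone mouse 40 it held 1.56 of the 46.9. The part of T cell transcripts in the Tox2 values was not tested. Of the T cell exhaustion genes, Pdcd1 and Batf were listed at 0 in all libraries, and limma and the authors' deposited table called 0 of the 6 tested. Their median log2 change was -1.66, with Ikzf2 at -1.31 ± 0.76, Ctla4 at -2.77 ± 1.29 and Tigit the 1 gene above 0. Natural killer cell markers summed to 3.69 to 15.8 normalized reads in the border zone and 2.92 to 6.79 in remote muscle, with Ncr1, Gzma and Gzmb at 0 throughout, and B cell markers to 149 to 394 in the border zone and 107 to 281 in remote muscle, mostly Ebf1.

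Markers of other cell types were summed in the same way. These sums are not shares of a library, and the normalized total was higher in every border zone library than in both remote ones. Macrophage markers summed to 187 to 256 normalized reads in the border zone and 294 to 463 in remote muscle, and Mrc1 (log2 -4.10, adjusted p = 0.023) and C1qc (log2 -3.48, adjusted p = 0.034) were called lower in the authors' deposited table. DESeq2 lost the Mrc1 call without border zone mouse 34 (adjusted p = 0.0899) and gave it no adjusted p without either remote library. It lost the C1qc call without border zone mouse 32 (adjusted p = 0.0833), border zone mouse 34 (adjusted p = 0.100) or remote mouse 40 (adjusted p = 0.108), and gave it none without remote mouse 43. Fibroblast markers summed to 3478 to 5350 in the border zone and 2108 to 2822 in remote muscle, with 0 of 10 called. Of these 10, 6 had positive log2 changes, and 3 did with total-count scaling. Endothelial markers summed to 304 to 740 in the border zone and 373 to 473 in remote muscle, with 0 of 8 tested genes called. Smooth muscle and pericyte markers summed to 7640 to 14662 in the border zone and 4984 to 5990 in remote muscle, and Cspg4 made up 69.2% to 81.8% of a border zone sum. Without Cspg4 the sums were 2080 to 3419 in the border zone and 3234 to 5690 in remote muscle, and overlapped. Most of these remote sums was Abcc9, with 2327 and 4900 normalized reads in remote mice 40 and 43. It had 1552, 754 and 1292 in border zone mice 32, 34 and 40. Rgs5 and Abcc9 were lower in every border zone library than in both remote ones, with log2 changes of -4.09 ± 1.43 and -1.56 ± 0.52 (SE) and no call. Cspg4 and Pdgfrb were higher in every border zone library, Pdgfrb at 1.16 ± 0.62 (SE) and not called. Such separation occurred for 18.9% of tested genes on the higher side and 20.3% on the lower. Of the 9 tested markers, 7 had positive log2 changes. With total-count scaling, which lowers the median of all genes to -1.58, 2 did. Cspg4 exceeded the threshold as higher in the authors' deposited table, at log2 3.07 with an adjusted p = 0.0094, and DESeq2 lost this call without remote mouse 43 (adjusted p = 0.389). Their part in the values of the family was not tested.

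Genes beside the members did not share the size of the Tox2 change. Of 20 annotated genes within 250000 bases of Tox2, 6 had a mean of at least 10, and 0 were called in the authors' deposited table. The closest was Jph2, which encodes the junctophilin that ties the sarcoplasmic reticulum to the T-tubule and is transcribed toward Tox2 from the other strand, with its end 12072 bases away. Jph2 had 6569, 4502 and 3046 normalized reads in the border zone of mice 32, 34 and 40, against 2425 and 1833 in remote mice 40 and 43, a log2 change of 1.09 ± 0.48 (SE). On this scale Jph2 was higher in each border zone library, as were 18.9% of tested genes, but by far less than Tox2. As a share of its library's normalized total, Jph2 was instead lower in each border zone library than in both remote ones. The others had log2 changes of 1.46 ± 0.75 for Ift52, 0.70 ± 1.82 for Mybl2, 0.73 ± 1.65 for the pseudogene Gm11453, -0.62 ± 0.56 for Oser1 and -2.17 ± 0.82 for Fitm2, a lipid droplet protein gene with an adjusted p of 0.0534 in the authors' deposited table. No other annotated gene lay within 250000 bases of Tox3. Near Tox the 1 gene with a mean of at least 10 was Nsmaf, with a log2 change of -1.28 ± 0.54 (SE), and the antisense gene Gm11802 inside Tox was at 0 in all libraries.

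Tox4 lies in a crowded stretch of chromosome 14, where Rab2b overlaps its start and Mettl3, the catalytic partner of Mettl14, overlaps its end, both on the other strand. Whether strand was used in counting is not given in the sources used here, so reads of the shared ends could be assigned to either gene. Mettl3 had 281, 155 and 168 normalized reads in the border zone of mice 32, 34 and 40 and 215 and 106 in remote mice 40 and 43, and Rab2b had 1.58, 27.1 and 64.9 in the border zone of mice 32, 34 and 40 and 51.3 and 82.6 in remote mice 40 and 43. Neither followed the Tox4 values library by library. Of the 7 genes near Tox4 with a mean of at least 10, Rpgrip1 exceeded the threshold as higher in the authors' deposited table, at log2 3.02 with an adjusted p = 0.039. Among the sets with a library left out, DESeq2 called Rpgrip1 only without border zone mouse 40, with adjusted p of 0.115 to 0.579 in the other 4. Hnrnpc, Chd8, Supt16 and Sall2 were not called, with log2 changes of 1.44 ± 0.57, 1.30 ± 0.47, 0.02 ± 0.72 and 0.86 ± 2.54 (SE).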

How the data were processed

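RNA of PCM-1-sorted cardiomyocyte nuclei was sequenced after low-input amplification from 500 pg, per the labels' protocols. The deposited values are a signal that is 0 or more, reads of a gene scaled with 1 size factor a library; the authors' log2 fold changes and p-values come from their deposited comparison table, and transcript lengths from another deposited table. STAR, DESeq2 and mm10 are named in the submitters' processing notes without roles, and the counting tool is not given in the sources used here. Division by the smallest nonzero value of a library gave whole numbers for 100% of its values (within 0.01), so reads could be recovered. On the recovered reads DESeq2 called 902 genes and edgeR 0.

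Normalized values were tested with limma 3.58.1 (R 4.3.3) on log2(value + 1), two-sided, with a mean-variance trend, group as the only term, Benjamini-Hochberg adjustment and a mean of at least 10. edgeR 4.0.16 and DESeq2 1.42.0 were run on the recovered reads, without a filter on the mean in DESeq2. Fold changes on this scale understate those of low genes. The p-values measure the spread between libraries and take the 2 libraries of mouse 40 as independent. The smallest limma adjusted p was 0.133. Methods were tested on simulated data. Gene coordinates came from GENCODE M21. Symbols were in the file for 21812 rows and came from Ensembl IDs for 18579.

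Members, lists and motifs were chosen with earlier results of these data known. Named genes were the members, the called genes of each list or its 3 most abundant, genes within 250000 bases of a member, and those nearest in profile; other genes were named after their values were seen. Cd244a and Adgre1 were not matched by symbol. The group means per kilobase in the deposited length table were not used.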

Additional observations from a re-analysis of the deposited data

How the results depend on the processing

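No paired analysis was possible because the regions share 1 mouse, number 40. The Tox2 change kept its sign in all 17 alternatives, from 1.51 to 6.48 on the log2 scale against 5.22. It fell to 2.71 with the libraries of mice 40 and 43 only and to 1.51 within mouse 40, and ran from 4.02 to 6.48 with 1 library left out. The Tox3 change of 2.57 also kept its sign in all 17. It was 1.16 with total-count scaling, 0.94 within mouse 40, and from 1.27 to 3.88 with 1 library left out. Both genes had groups without overlap, so leaving out libraries, other pseudocounts and other filters could not reverse these signs. Tox4 (-0.24) was at -0.86 with the libraries of mice 40 and 43 only, at -1.66 with total-count scaling and from -0.49 to 0.08 with 1 library left out. Ratios to Tox4, added after seeing the data, gave 5.76 for Tox2 and 2.83 for Tox3. The cause of these shifts was not tested. Total-count scaling moved the median of all genes by -1.37 and quantile normalization by 0.15.

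Limma called 0 genes. DESeq2 on recovered reads called 574 higher and 328 lower, quantile normalization and total-count scaling 1 higher each, and leaving out 1 library 0 to 205 higher and 0 to 30 lower. The high values came without border zone mouse 40. Relative to the median of all genes, 6 of 12 list medians kept their sign in every alternative; the others were those of Tox4 partners, Kat7, CREB, fibroblast, endothelial or cardiomyocyte genes. Of the 6 genes nearest Tox2, 5 stayed with a pseudocount of 5 and 5 with total-count scaling. With 3 and 2 libraries, and 3 reads of Tox2 in remote mouse 43, depth and sample number limit the fold changes.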
